A study of Mus musculus with 9 samples.

Results

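The genes described here make, organise, bind and degrade the matrix of versican and hyaluronan, measured in the right ventricle of mice after banding of the pulmonary artery or a sham operation. They are Has1, Has2, Has3, Vcan, Hapln1, Tnfaip6, Cd44, Hyal1 and Hyal2, and every probe set whose gene symbol in the array's annotation is exactly one of these 9 was taken. There were 22 such probe sets, of 34945 that name a single gene, and they covered 8 of the 9 genes, of 18193 genes in all. Hyal1 had none, because the 2 probe sets that name it also name Naa80 and were not used. Total RNA of right ventricular myocardium from male C57BL6J mice aged 6 to 8 weeks was hybridised to single-colour Affymetrix arrays, 5 after pulmonary banding and 4 after sham surgery. The labels call the arrays of a group replicates without saying that each is a separate animal, so the p-values measure the spread between these samples. The labels also give no time between surgery and sampling, and the series' design text mentions 5 banded and sham mice, of which 4 sham arrays are analysed here. Values are log2 expression per probe set as deposited, and a difference is banding minus sham on that scale. With 9 arrays, precision is limited by their number. A probe set is called dim in a group when the group mean lies under 4.20, which is 2 log2 units above the lowest value of the table, 2.20, a floor at which many probe sets pile up.

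Hyaluronan is a long, unbranched sugar polymer that is spun out through the plasma membrane by the hyaluronan synthases Has1, Has2 and Has3. Versican, a large chondroitin sulphate proteoglycan, binds to it through a globular domain, link proteins lock the complex, and the resulting hydrated gel is found in the developing heart, where Has2 and versican are needed for the endocardial cushions, and in injured tissue. Cells hold the polymer through receptors such as Cd44, and hyaluronidases cut it into fragments.

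The arrays of each group were alike, with correlations over genes of 0.993 to 0.997 among banding arrays, 0.983 to 0.997 among sham arrays and 0.945 to 0.977 between the groups. Heart muscle was borne out by the 12 markers listed for ventricular cardiomyocytes, none of them dim in both groups. Their summed linear level ran from 438170 to 500581 in banding and from 482798 to 511161 in sham arrays. Whether they tell the right ventricle from other heart muscle was not tested. Of these markers 6 fell after banding, among them Tnni3 (-0.91), and 1, Nppa (2.76), rose, where 20.0% of all genes were lower and 18.4% higher. Liver transcripts set sham replicate 4 apart: the summed linear level of 11 liver genes was 127794 on it, 9908 to 24951 on the other sham arrays and 103 to 931 on banding arrays, where replicate 5 was the highest. Each of the 4 genes that rose is given with and without these arrays. So is each other named gene that was followed through the alternative settings and whose call turned on them. Folds without sham replicate 4 are given for Ambp, Itih3, Itih4, Ptx3 and Fn1. On the remaining arrays the liver sum still separated the groups, at 9908 to 24951 in sham and 103 to 256 in banding. Leaving the arrays out therefore does not remove this difference between the groups.

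Promoters are shown for the 3 of the 9 genes with the largest differences, all of them higher after banding. Each window holds the 250 bases before the gene's annotated start, read 5′ to 3′ along the gene, from RefSeq with build GRCm38.p6. The Vcan window is chr13:89742513-89742762 on the minus strand with 62.4% GC, that of Cd44 is chr2:102901666-102901915 on the minus strand with 56.4% GC, and that of Tnfaip6 is chr2:52037863-52038112 on the plus strand with 44.4% GC. Capitals mark matches to the motifs searched.
Vcan: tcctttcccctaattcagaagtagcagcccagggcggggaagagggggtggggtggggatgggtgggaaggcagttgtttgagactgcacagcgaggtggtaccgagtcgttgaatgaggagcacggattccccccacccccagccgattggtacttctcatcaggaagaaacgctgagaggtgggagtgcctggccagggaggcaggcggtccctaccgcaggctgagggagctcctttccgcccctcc
Cd44: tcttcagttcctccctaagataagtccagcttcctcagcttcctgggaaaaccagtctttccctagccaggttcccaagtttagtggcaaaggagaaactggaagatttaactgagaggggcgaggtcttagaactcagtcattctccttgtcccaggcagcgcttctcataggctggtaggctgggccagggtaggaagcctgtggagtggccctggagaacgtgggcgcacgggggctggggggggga
Tnfaip6: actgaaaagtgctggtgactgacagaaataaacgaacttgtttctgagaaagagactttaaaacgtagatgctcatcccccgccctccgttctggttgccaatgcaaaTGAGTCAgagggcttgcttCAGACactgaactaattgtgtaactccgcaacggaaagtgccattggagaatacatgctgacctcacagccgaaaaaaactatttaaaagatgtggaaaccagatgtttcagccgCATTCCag
Motifs were searched on both strands, and none of the patterns is contained in another. They were a TATA box (TATAAA, present in 12.4% of 32851 RefSeq promoter windows of the same length), AP-1 (TGANTCA, 6.75%), TEAD (CATTCC, 12.6%), TCF/LEF (CTTTGA, 13.8%) and SMAD (CAGAC, 42.2%). Tnfaip6 held an AP-1 match starting at base -142 from the gene start, a SMAD match at -123 and a TEAD match at -8. The Vcan and Cd44 windows held none of these letters. The median GC content of all windows was 52.4%, so the window of Vcan was richer and that of Tnfaip6 poorer in G and C than the median. Promoter entries were found for 7 of the 9 genes, all but Has2 and Has3.

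Versican, its partner Tnfaip6, the receptor Cd44 and the synthase Has2 rose, and 3 of the other 4 measured genes were dim in both groups. Tnfaip6, Cd44, Vcan and Has2 were higher after banding, none of the 8 measured genes was lower, and Has1, Has3, Hapln1 and Hyal2 did not pass the test, a limma fit with Benjamini-Hochberg adjusted p under 0.05. The 4 of 8 stand beside a background of 18.4% of all 18193 genes that were higher and 20.0% that were lower. The median difference of the 8 measured genes was 0.59, against 0 for all genes. In the 4 genes that rose every banding array lay above every sham array, which held for 17.4% of all genes. Of the 22 probe sets, 8 were higher and none lower, where 15.3% of all single-gene probe sets were higher. The other 14 comprised 13 that were dim in both groups and the single probe set of Hyal2, so the count over probe sets above the dim level is not a count over the set. The arrays measure a whole tissue, in which a change in the number of cells of a type and a change in RNA per cell cannot be told apart.

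**Figure D1:**
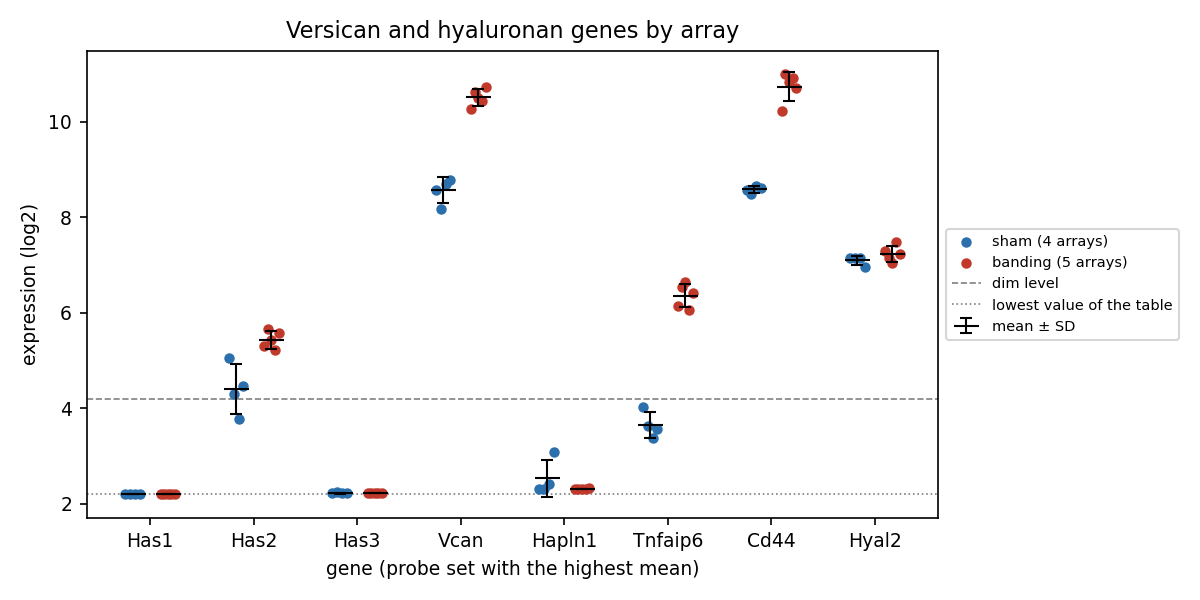
Expression (log2) of the 8 measured genes on each array, with sham arrays in blue, banding arrays in red, and black bars for the mean ± SD. The groups are separate for Has2, Vcan, Tnfaip6 and Cd44, overlap for Hyal2, and Has1, Has3 and Hapln1 lie below the dashed dim level on every array.

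Of the 3 hyaluronan synthases, Has2 alone was above the dim level. Has2 is the main synthase of the embryonic heart. Its brighter probe set, 1449169_at, read 5.30, 5.66, 5.42, 5.22 and 5.57 on banding arrays and 5.06, 4.29, 3.78 and 4.46 on sham arrays. The groups did not overlap, but sham replicate 1 lay only 0.16 under the lowest banding array, and the sham arrays spread over 1.27 log2 units against 0.44 in banding. The means were 5.43 ± 0.18 (SD, n = 5) and 4.40 ± 0.53 (SD, n = 4), a 2.05-fold difference of 1.03 ± 0.24 (SE) on the log2 scale, with a limma adjusted p of 0.0109. By size, 7.68% of all genes rose more. Leaving out each array in turn kept the call, with differences from 0.83 to 1.25 and adjusted p up to 0.0339, and without sham replicate 4 the difference was 1.05 (adjusted p 0.0265). Without both sham replicate 4 and banding replicate 5 it was 1.02 and the adjusted p 0.0594, so the call was lost. The second Has2 probe set, 1418678_at, was dim in both groups, at 2.96 ± 0.25 (SD, n = 5) and 2.69 ± 0.01 (SD, n = 4), with a limma adjusted p over probe sets of 0.160. The mean of both Has2 probe sets gave a smaller difference, 0.65, that still passed the test at an adjusted p of 0.0112.

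The other synthases had no measurable level. The Has1 probe set 1420590_at was at the floor on all 9 arrays. Has3, 1420589_at, read 2.22 on every array but sham replicate 2, at 2.24. No difference can be read for either gene, since values this near the floor have no order.

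Versican rose after banding on each of its 3 probe sets that were above the dim level. The brightest, 1427256_at, read 10.28, 10.62, 10.50, 10.44 and 10.74 after banding and 8.58, 8.18, 8.71 and 8.79 after sham surgery. All banding arrays exceeded all sham arrays, with a gap of 1.49 between the groups. The means of 10.51 ± 0.18 (SD, n = 5) and 8.56 ± 0.27 (SD, n = 4) differed by 1.95 ± 0.14 (SE), or 3.86-fold, with a limma adjusted p of 7.13e-05, and 2.45% of all genes rose more. With sham replicate 4 and banding replicate 5 left out, the call held at 1.97 (adjusted p 0.000960). A mean over all 8 Vcan probe sets reduces the difference to 1.002, since 5 of them are dim in both groups and 3 of those sit at the floor on all arrays.

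The remaining bright Vcan probe sets gave larger differences. Probe set 1421694_a_at read 8.69, 9.06, 8.99, 9.15 and 9.42 after banding and 5.78, 5.77, 6.18 and 6.68 after sham surgery, a 7.77-fold difference of 2.96 ± 0.23 (SE) with a limma adjusted p over probe sets of 0.000108. Probe set 1427257_at read 7.28, 7.16, 7.22, 7.24 and 7.50 after banding and 3.89, 3.59, 3.87 and 5.32 after sham surgery. Its sham mean, 4.17, was dim, so the fold is a lower bound of at least 8.46, with an adjusted p of 0.000411. On both of these probe sets sham replicate 4 was the highest sham array, and no array of one group reached the other.

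Versican has splice forms that differ in the exons carrying the chondroitin sulphate chains, and probe sets of a gene can read different transcripts or ends. The annotation used here does not say which form each Vcan probe set reads. Whether the probe sets differed in their change was therefore tested within arrays. The level of 1427257_at minus that of 1427256_at was -3.24 ± 0.17 (SD, n = 5) in banding and -4.40 ± 0.63 (SD, n = 4) in sham arrays. The change on 1427257_at was thus larger by 1.16, with a two-sided exact permutation p of 0.00794, the smallest that 5 against 4 arrays allow, and 0.0159 after adjustment over the 2 pairs tested. The groups barely separated, with sham replicate 4 at -3.468 and banding replicate 2 at -3.465. The other sham arrays lay at -4.84 to -4.59. Under quantile normalisation the unadjusted exact permutation p was 0.0159. The sham mean of 1427257_at was dim. Raising all values under the dim level to it gave a difference of 0.85 at the same p. A further pair, chosen after seeing the data, lies above the dim level in both groups: 1421694_a_at minus 1427256_at was -1.45 ± 0.14 (SD, n = 5) in banding and -2.46 ± 0.29 (SD, n = 4) in sham arrays. These changes differed by 1.01, again with an exact permutation p of 0.00794 and 0.0159 adjusted over 4 pairs. The same test for Cd44 set 1452483_a_at against 1434376_at and found a difference of changes of 0.015 (exact permutation p 0.865), and 1423760_at against 1434376_at gave 0.20 (exact permutation p 0.0635, adjusted 0.0847).

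**Figure D2:**
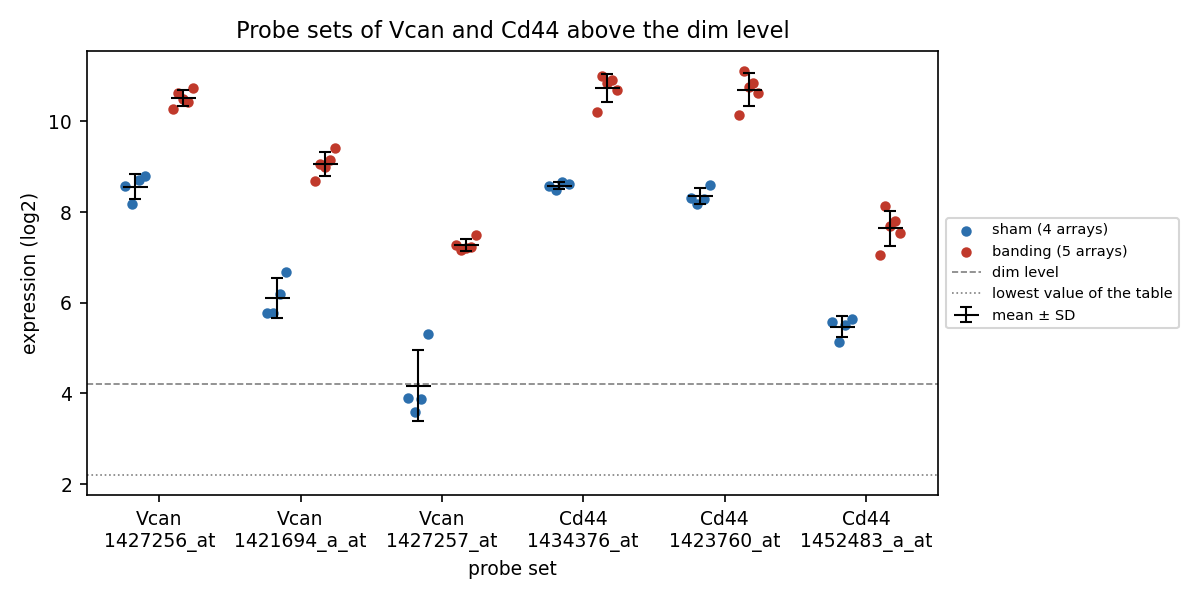
Expression (log2) on each array of the 3 Vcan and 3 Cd44 probe sets above the dim level, with sham arrays in blue, banding arrays in red, and black bars for the mean ± SD. Banding lies above sham on all 6, with differences of 1.95, 2.96 and 3.11 for Vcan and of 2.15, 2.36 and 2.17 for Cd44.

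Hapln1, the link protein that clamps versican or aggrecan onto hyaluronan, was dim on all 4 of its probe sets in both groups. The brightest, 1438020_at, averaged 2.31 ± 0.01 (SD, n = 5) after banding and 2.53 ± 0.38 (SD, n = 4) after sham surgery, with sham replicate 4 at 3.09. The difference of -0.22 did not pass (limma adjusted p 0.375), and without sham replicate 4 it was -0.03. The other link proteins and lecticans, meaning the proteoglycans related to versican, were likewise out of range. All 6 of them (Hapln2, Hapln3, Hapln4, Acan, Bcan and Ncan) were dim in both groups and none passed the test, so versican was the only lectican with a measurable level here. Acan, the cartilage proteoglycan aggrecan, was at the floor on all 9 arrays and Hapln3 on 8 of them.

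Tnfaip6 encodes TSG-6, a secreted protein with a hyaluronan-binding link module that transfers heavy chains of inter-alpha-inhibitor onto the polymer. Its probe set, 1418424_at, read 6.14, 6.54, 6.63, 6.06 and 6.41 after banding and 4.03, 3.64, 3.38 and 3.56 after sham surgery. No sham array was above the dim level and all 5 banding arrays were. The means were 6.36 ± 0.25 (SD, n = 5) and 3.65 ± 0.27 (SD, n = 4), a difference of 2.70 ± 0.17 (SE) and at least 4.47-fold, with a limma adjusted p of 3.83e-05. With sham replicate 4 and banding replicate 5, the highest for liver transcripts in each group, left out, the difference was 2.66 (adjusted p 0.00112).

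Cd44, the main cell surface receptor for hyaluronan, rose on each of its 3 probe sets above the dim level, and by nearly the same amount on all of them. Probe set 1434376_at read 10.22, 11.00, 10.84, 10.91 and 10.70 after banding and 8.57, 8.48, 8.66 and 8.61 after sham surgery. The sham arrays spread over only 0.18 and the banding arrays over 0.78, with banding replicate 1 the lowest, and a gap of 1.56 separated the groups. The means of 10.74 ± 0.31 (SD, n = 5) and 8.58 ± 0.08 (SD, n = 4) differed by 2.15 ± 0.16 (SE), or 4.45-fold, with a limma adjusted p of 6.61e-05, and 1.92% of all genes rose more. Leaving out both sham replicate 4 and banding replicate 5 gave 2.17 (adjusted p 0.00151).

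The other Cd44 probe sets above the dim level repeated the order of the banding arrays, but not that of the sham arrays. Probe set 1423760_at read 10.15, 11.11, 10.77, 10.86 and 10.64 against 8.32, 8.19, 8.29 and 8.60, a 5.13-fold difference of 2.36 ± 0.19 (SE) with an adjusted p over probe sets of 0.000132. Probe set 1452483_a_at read 7.05, 8.12, 7.68, 7.80 and 7.54 against 5.57, 5.14, 5.52 and 5.65, a 4.50-fold difference of 2.17 ± 0.22 (SE) with an adjusted p of 0.000294. Banding replicate 1 was the lowest and replicate 2 the highest banding array on all 3, and these probe sets share their RNA and are not separate evidence. The fourth, 1443265_at, was dim in both groups.

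Of the hyaluronidases, which cut the polymer, Hyal2 was measured well above the dim level and did not pass the test. Hyal2 is anchored to the cell surface and cuts long chains into intermediate fragments. Probe set 1448679_at read 7.29, 7.15, 7.03, 7.47 and 7.23 after banding and 7.15, 7.15, 7.15 and 6.95 after sham surgery, and the groups overlapped. The means of 7.23 ± 0.17 (SD, n = 5) and 7.10 ± 0.10 (SD, n = 4) differed by 0.14 ± 0.09 (SE), or 1.10-fold, with a limma adjusted p of 0.324. Banding replicate 2 and sham replicates 1 to 3 carried exactly the same deposited value.

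Gene by gene, the order of the arrays within a group differed. Among banding arrays, replicate 5 was the highest for Vcan, replicate 2 for Has2 and Cd44, replicate 3 for Tnfaip6 and replicate 4 for Hyal2. Over all 9 arrays the gene most like Vcan by Pearson's r, among 11008 genes above the dim level in a group, was Taok3 (0.998), followed by Timp1 (0.997) and Cnn3 (0.995). Those most like Cd44 were AA467197 (0.997), Plod2 (0.997) and Ccdc88a (0.997), and those most like Tnfaip6 were Tmem64 (0.995), Plekha4 (0.994) and Ankfy1 (0.993). These r values mainly follow the step between the groups: 925 genes had an r over 0.95 with Vcan, 1084 with Cd44 and 724 with Tnfaip6. Has2 had 12 such genes, led by Socs6 (0.979), 9130401M01Rik (0.979) and Malat1 (0.967), and Hyal2 had 1, Filip1 (0.973), followed by Orai1 (0.947) and Pacsin3 (0.915).

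Other genes of the pathway were taken from lists by function, each described by its counts in the limma fit over all genes. The counts of every list are to be read beside the shares over all genes, 18.4% higher and 20.0% lower. Of the enzymes that make the sugar precursors of hyaluronan, 4 of 11 measured were higher after banding and none was lower, with a median difference of 0.25 against 0 for all genes. Ugdh, which makes the UDP-glucuronic acid that every synthase uses, rose 2.02-fold (1.01 ± 0.15 SE, adjusted p 0.0013). Its banding arrays read 9.73, 10.11, 10.18, 9.82 and 9.79 and its sham arrays 8.84, 8.71, 8.78 and 9.31, with no overlap. Gfpt1 and Gfpt2 are the entry enzymes of the hexosamine pathway that supplies the other sugar. Gfpt1 rose 1.86-fold (adjusted p 0.000306), and the rise of Gfpt2 was 1.66-fold (adjusted p 0.00369). Pgm3, a later enzyme of that pathway, rose 1.41-fold at an adjusted p of 0.0332, a call that was lost without any of banding replicates 4 and 5 or sham replicates 1 and 2 (adjusted p 0.0637 to 0.0872) and without both sham replicate 4 and banding replicate 5 (0.0920). The remaining 7 did not pass.

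Of the genes listed under hyaluronan breakdown, 5 of 10 measured were higher and none was lower, with a median difference of 0.40. The other 5, the hyaluronidases Hyal3, Hyal4, Hyal5, Hyal6 and Spam1, were dim in both groups. Cemip, a protein that drives hyaluronan depolymerisation without being a classical hyaluronidase, went from near the floor to a clear level. It read 5.16, 7.49, 5.83, 6.99 and 7.58 after banding and 2.42, 2.31, 2.20 and 2.31 after sham surgery. The difference was 4.30 ± 0.53 (SE), at least 5.32-fold, with an adjusted p of 0.00051, and the banding arrays themselves spread widely. Cemip2, its membrane-bound relative, rose 2.03-fold (adjusted p 0.000577). Lysosomal enzymes on the list rose as well: Gusb, beta-glucuronidase, 2.20-fold (adjusted p 0.000204), and Hexa, a beta-hexosaminidase subunit, 1.74-fold (adjusted p 4.7e-05). Glb1, beta-galactosidase, is counted in the list and rose 1.88-fold (adjusted p 0.000323), but hyaluronan holds no galactose for it to cut.

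Hyaluronan receptors and binding proteins moved in both directions, with 6 of 11 higher, 3 lower and 2 dim in both groups, and a median difference of 0.45. Of all genes, 18.4% were higher and 20.0% lower. The listed genes that fell were Lyve1, described below, C1qbp (-0.82, adjusted p 0.00146) and Habp4 (-0.45, adjusted p 0.0143). C1qbp and Habp4 were not followed through the alternative settings. Ptx3, a secreted pentraxin that binds TSG-6 and stabilises hyaluronan matrix, rose 5.98-fold (2.58 ± 0.35 SE, adjusted p 0.000851). It read 6.93, 6.29, 7.03, 6.96 and 7.08 after banding and 4.54, 3.56, 3.82 and 5.20 after sham surgery. Without sham replicate 4 the sham mean was dim, at 3.97, and the rise was at least 6.33-fold. Layn, layilin, a membrane receptor for hyaluronan, rose 2.33-fold (adjusted p 0.000149). Tlr2 and Tlr4 are innate immune receptors reported to respond to hyaluronan fragments. Tlr2 rose 3.34-fold (adjusted p 0.000214), and the rise of Tlr4 was 2.58-fold (adjusted p 0.000233). Stab1, a scavenger receptor of macrophages and sinusoidal endothelium, rose 1.37-fold (adjusted p 0.00297). Hmmr, which binds hyaluronan and also serves the mitotic spindle, rose at least 3.23-fold (adjusted p 0.00141). All 7 measured proliferation markers rose too, with a summed linear level of 889 to 2565 in banding and 137 to 366 in sham arrays, and their part in the Hmmr result was not tested.

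Lyve1, the hyaluronan receptor of lymphatic endothelium and of some tissue macrophages, fell. It read 8.34, 7.12, 8.20, 7.43 and 8.01 after banding and 9.60, 9.35, 9.55 and 9.68 after sham surgery. The groups were 1.01 apart, and the level was 3.31-fold lower after banding (-1.73 ± 0.26 SE, adjusted p 0.00144). Of 5 lymphatic markers, Prox1 (-1.10) and Mmrn1 (-0.55) fell, Flt4 (0.48) and Pdpn (1.62) rose and Reln did not pass. Over all genes, 18.4% were higher and 20.0% lower. The median difference of the 5 markers was -0.54, against 0 for all genes. Their summed linear level nevertheless ran higher, from 1157 to 1422 in banding and from 1009 to 1101 in sham arrays. That sum leans on Pdpn, the highest of the 5 on every banding array (9.01 to 9.45, against 7.51 to 7.82 in sham arrays). The part of these markers in the fall of Lyve1 was not tested.

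**Figure D3:**
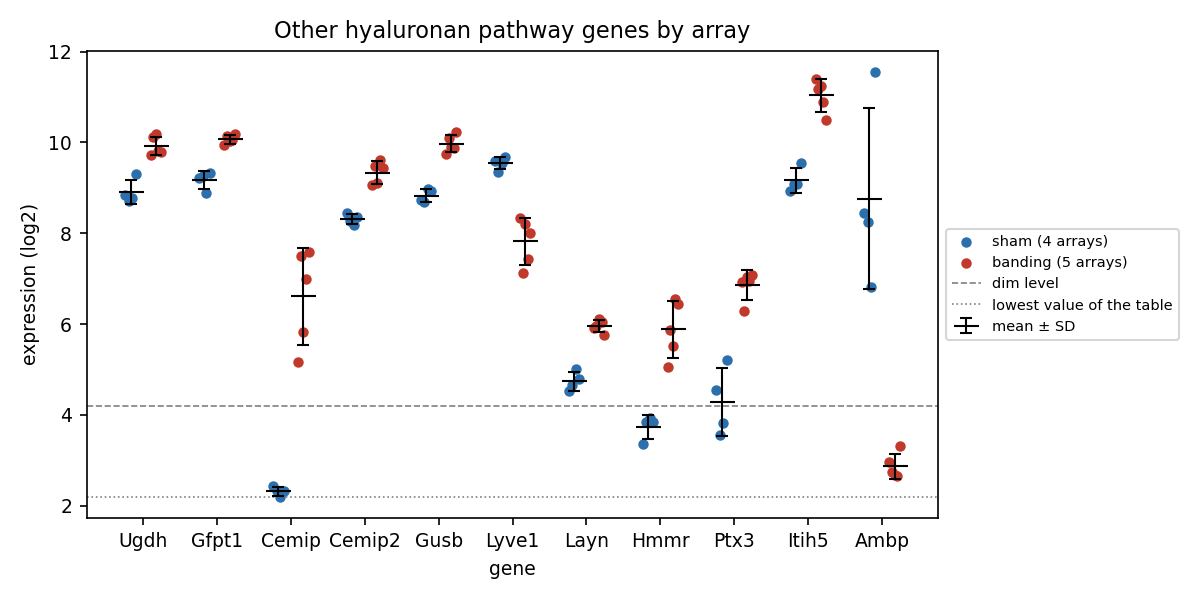
Expression (log2) on each array of 11 other genes of hyaluronan synthesis, breakdown, receptors and binding proteins, with sham arrays in blue, banding arrays in red, and black bars for the mean ± SD. Cemip rises from near the floor of 2.20, and Lyve1 and Ambp are the genes shown that lie lower after banding.

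The inter-alpha-inhibitor family supplies the heavy chains that TSG-6 attaches to hyaluronan, and bikunin, the light chain, is encoded by Ambp. Of 6 measured genes 1 was higher and 3 were lower, with a median difference of -2.39, where 18.4% of all genes were higher and 20.0% lower. Itih5, which unlike the others is expressed widely outside the liver, rose 3.68-fold (1.88 ± 0.21 SE, adjusted p 0.000346), from 8.93, 9.08, 9.08 and 9.55 in sham to 11.41, 11.17, 11.24, 10.90 and 10.49 in banding arrays. Ambp fell at least 23.7-fold (adjusted p 0.00115), from 8.44, 8.25, 6.81 and 11.55 in sham to between 2.66 and 3.31 in banding arrays, and without sham replicate 4 the fall was at least 12.5-fold (adjusted p 0.000301). Itih3 (-3.57, adjusted p 0.0456) and Itih4 (-3.21, adjusted p 0.0379) passed narrowly. Without sham replicate 4 the bounds were lower, at least 1.39-fold for Itih3 against 3.13-fold with it, and 1.83-fold for Itih4 against 3.65-fold. Both calls were lost when banding replicate 1, 2, 3, 4 or 5 or sham replicate 1 or 2 was left out (adjusted p 0.0544 to 0.100), and without both sham replicate 4 and banding replicate 5 the differences were -2.40 (adjusted p 0.0754) and -2.20 (0.0699). The other 2, Itih1 and Itih2, did not pass. Sham replicate 4 was the highest array for Ambp, Itih3 and Itih4, as it was for the liver genes, all 11 of which were lower after banding, and the part of liver transcripts in these differences was not tested.

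Among 8 genes for versican-cleaving proteases and their cofactor, 2 rose, 1 fell and the other 5 missed the threshold, and the median difference was 0.50. These counts are near the background shares of 18.4% higher and 20.0% lower. Adamts9 rose 1.63-fold (adjusted p 0.00307) and Adamts4 at least 1.64-fold (adjusted p 0.00676). The Adamts4 difference was 1.22, and it was 0.72 with an adjusted p of 0.0693 when values were floored at the dim level. Adamts5 was 1.29-fold lower (adjusted p 0.0251), a call lost without banding replicate 3 or sham replicate 2, 3 or 4 (adjusted p 0.0525 to 0.0660) and without both sham replicate 4 and banding replicate 5 (0.0923). Adamts1 read 8.65, 8.67, 8.79, 9.71 and 9.80 after banding and 8.55, 8.13, 8.17 and 8.48 after sham surgery. These groups did not overlap, but the difference of 0.79 did not pass (adjusted p 0.0766) and did so when dim genes were filtered out (0.0283). Fbln1, a fibulin that acts as cofactor of Adamts1, split the banding arrays, with 11.49, 11.71, 11.54, 9.93 and 10.21 against 11.05, 11.16, 11.17 and 11.13 in sham arrays, and the groups overlapped. Its difference of -0.16 (adjusted p 0.902) turned to 0.10 without banding replicate 4 and 0.03 without replicate 5. Banding replicates 4 and 5 were thus the lowest for Fbln1 and the highest for Adamts1.

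Partners of versican in the matrix and on cells had the highest median difference of the 9 pathway lists, 1.31. Of 9 measured, 7 rose, none fell and the other 2 missed the threshold. Tnc, tenascin-C, which binds the lectin domain of versican, was dim on every sham array (2.89 to 3.16) and read 10.25, 10.37, 10.22, 9.66 and 10.19 after banding, a rise of at least 61.4-fold (adjusted p 8.72e-07). Fn1, fibronectin, rose 16.2-fold (adjusted p 7.13e-05), Fbln2, a fibulin that binds versican, 4.55-fold (adjusted p 3.3e-05), and Fbn2, a microfibril protein, at least 22.4-fold (adjusted p 3.29e-05). In Fn1, sham replicate 4 at 10.53 stood above the other sham arrays (9.15 to 9.26), and the lowest banding array was at 13.34. Without sham replicate 4 the rise of Fn1 was 20.3-fold.

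Genes that build and sulphate the chondroitin sulphate chains carried by versican were measured for 25 of 26 listed. In this list 16 genes rose, 2 fell and the other 7 missed the threshold, and the median difference was 0.65. Chst11, a chondroitin 4-sulphotransferase, rose 4.95-fold (2.31 ± 0.12 SE, adjusted p 2.36e-05), from 4.31 to 4.58 in sham to 6.53 to 7.11 in banding arrays. Dsel, an epimerase that turns chondroitin into dermatan sulphate, rose 3.31-fold (adjusted p 1.9e-05). Chst12, another 4-sulphotransferase, rose 2.37-fold (adjusted p 0.000101), and Papss1, which makes the sulphate donor, 1.99-fold (adjusted p 0.000107). The chains are also carried by other proteoglycans, and the arrays do not say to which core protein they were joined.

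Of 10 measured partners of Cd44 inside and outside the cell, 3 rose, 1 fell and the other 6 missed the threshold, and the median difference was 0.07. The background shares over all genes were 18.4% higher and 20.0% lower. Mmp14, a membrane metalloproteinase that sheds Cd44, rose 13.5-fold (3.76 ± 0.10 SE, adjusted p 2.54e-06), with 10.66 to 10.94 in banding and 6.85 to 7.26 in sham arrays. Moesin (Msn) and radixin (Rdx) tie the tail of Cd44 to actin. Msn rose 2.65-fold (adjusted p 0.000339), and the rise of Rdx was 1.52-fold (adjusted p 0.00971). Leaving out both sham replicate 4 and banding replicate 5 ended the Rdx call (0.55, adjusted p 0.0659). Nf2, merlin, a relative of these linkers that also binds Cd44, was 1.42-fold lower (adjusted p 0.000213).

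**Figure D4:**
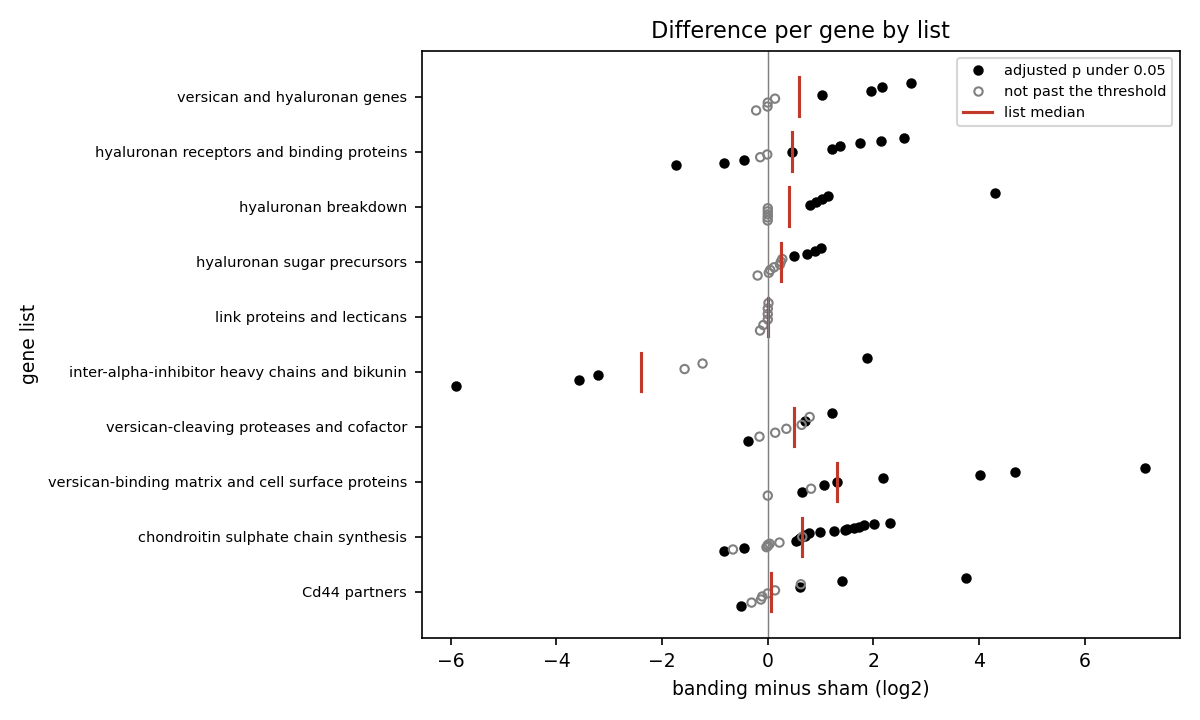
Difference of each gene (banding minus sham, log2, x axis) by gene list (y axis), with filled points for a limma adjusted p under 0.05, open points for genes not past it, and a red line at each list's median. The median is 0.59 for the versican and hyaluronan genes and 1.31 for versican-binding proteins, and the inter-alpha-inhibitor list has a negative median, -2.39.

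Markers of several cell types moved with these genes. Their counts are to be read beside the shares over all genes, 18.4% higher and 20.0% lower. Of 12 fibroblast markers 10 were higher and 1 lower, with a summed linear level of 137300 to 169328 in banding and 61427 to 70133 in sham arrays, and all 8 activated fibroblast markers were higher (63159 to 84973 against 8100 to 10013), a list that shares Tnc with the versican partners. Of 12 macrophage markers 11 were higher, with sums of 27190 to 41065 against 13467 to 16207. Of 8 smooth muscle and pericyte markers 7 were higher (24682 to 32582 against 16098 to 18184). Of 10 endothelial markers 6 were higher and 4 did not pass, and their sums overlapped between the groups (7831 to 10558 against 6708 to 8033). No marker of these 5 lists was dim in both groups. Of 8 valve and cartilage-like markers 3 were higher, 1 was lower and 4 were dim in both groups (2284 to 3938 against 551 to 1111). That list shares Comp with the activated fibroblast markers. Epicardial and mesothelial markers, 3 of 9 higher, and neutrophil markers, 1 of 6 higher, had none lower and had sums that overlapped between the groups. Of 9 lymphocyte markers none passed and all were dim in both groups. The part of these markers in the rises of Vcan, Cd44, Tnfaip6 and Has2 was not tested.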

How the data were processed

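The deposited table holds log2 expression values per probe set, and per the submitters' processing notes the tools RMA and GCRMA were used, with no version, role or order given. The scale was read from the range of the values, 2.20 to 16.4. No value was normalised again. Of 45101 probe sets, 64 controls, 9160 naming no gene and 932 naming several were left out, leaving 34945 for 18193 genes, each read from its brightest probe set by the mean of the 9 arrays. Gene names come from the platform annotation and can be old.

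Banding and sham arrays were compared in limma 3.58.1 (R 4.3.3) with lmFit and eBayes, two-sided and without covariates. Adjustment was by Benjamini-Hochberg over all genes, or over all 34945 probe sets where that is stated, at a threshold of 0.05. The fit was tested on simulated data. Where a group mean was dim, a fold was taken against 4.20 and is given as "at least", and no fold is given where both were dim. Probe sets of a gene were compared by an exact permutation test over 126 splits. List medians and counts carry no test. Tables and plots used Python 3.11.15 with pandas 2.3.3, and matplotlib 3.10.9.

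The members and lists were chosen with earlier results of these data known. Genes named are all members, the 4 of each pathway list with the smallest p, a fixed set of hyaluronan and versican genes whatever their p, the 3 genes most like each measurable member, and markers that moved with a member. Hyal4, Hyal5, Hyal6, Spam1, Hapln2, Hapln4, Bcan, Ncan, Itih1, Itih2, C1qbp and Habp4 were named after their values were seen. Cemip2 is listed under its former symbol too. Some listed genes were not analysed here. The alternatives covered a filter on dim genes, quantile normalisation, median centring, trended and robust variance, array weights, a floor at the dim level, the mean of probe sets, leaving out cross-hybridising probe sets, each array in turn, sham replicate 4 with banding replicate 5, an exact test and the replicate number as a block.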

Additional observations from a re-analysis of the deposited data

Results flagged for a closer look

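Hyal2 on sham replicate 4 read 6.95 and stood apart from the other sham arrays, which all carried the same value, 7.15, so that its gap equals the whole range of the group. Of 17 groups of arrays tested in this way, 1 was picked out, and chance picks out about 5% of such groups. Without that array the Hyal2 difference was 0.09 (limma adjusted p 0.582) against 0.14 with it, and neither passed the test.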

How the results depend on the processing

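Vcan, Cd44 and Tnfaip6 kept their direction and their call in all 19 alternatives run for each, with differences of 1.002 to 2.03, 1.67 to 2.28 and 2.16 to 2.83. Has2 kept its call in 17 of 19. The count of genes past the threshold stayed within 1.5 times of the main one under every alternative run for genes, at 3 to 5 of the 8 measured and 5277 to 7780 of all. The count of probe sets was 7 to 8 of 22 with the filter, quantile, variance and block alternatives and each array left out. No such count was made for the others. The replicate numbers are shared by the labels of both groups, but same-numbered samples did not deviate together (correlations of 0.036, 0.011, -0.029 and -0.015). With the replicate block 3 genes and 7 probe sets of the set passed, with 5277 genes in all, and Has2 was 1.001 with an adjusted p of 0.0962. Of the genes named, C1qbp and Habp4 aside, the calls of Adamts4, Adamts5, Itih3, Itih4, Pgm3 and Rdx were also lost with the block. Signs turned only for small differences without a call in the main analysis. Under quantile normalisation Has3 was 0.016 (adjusted p 0.0280) at values near the floor, which is the fifth gene passing there. Fbln1 was 0.034 with the replicate block, 0.13 as the mean of probe sets, 0.0021 with array weights, 0.035 without sham replicate 4 and banding replicate 5, and -0.34 to 0.10 leaving out each array in turn. With median centring Hapln3 was -0.039 and Hapln4 -0.026, the shift that centring itself gives to values at the floor. The difference between Cd44 probe sets was -0.090 under quantile normalisation and -0.063 to 0.065 leaving out each array in turn, and that between Vcan probe sets 1.07 and 1.01 to 1.47, with 0.85 floored at the dim level. These alternatives for pairs of probe sets were chosen after seeing the data. Signal near the floor limits Has1, Has3, Hapln1 and the lower values of Has2 and Tnfaip6.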

Other observations

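Exact ties between arrays were not particular to Hyal2. Of 11013 genes above the dim level in a group, 3373 (30.6%) had a value that recurred to 9 decimals on 2 or more arrays, and 1545 (14.0%) had a value that recurred on 3 or more. In 1980 genes (18.0%) a banding and a sham array shared a value.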
